A study of Mus musculus with 8 samples.

Results

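The 8 genes described here mark the mesonephric (Wolffian) duct and simple epithelia: Gata3, Pax2, Pax8, Cldn7, Cdh1, Krt8, Krt18 and Upk3b. They were read on arrays of mouse embryonic gonad through every probe set that the array's annotation ties to 1 of them, which gave 9 of the 12488 probe sets on each array. Of these 9, 8 passed the filter on low signals and were among the 8452 fitted probe sets, 1 for each gene. The ninth, a second probe set of Krt18, lay between 2.72 and 3.40 on the log2 scale on all 8 arrays, under the floor of 6.99 below which signals were not ranked.

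Total RNA came from dissected gonads of Wnt4 knock-out (KO) and wild-type (WT) embryos, males and females, at embryonic days 14.5 (E14.5) and 12.5 (E12.5), and was hybridised to Affymetrix MG_U74Av2 arrays. The groups were KO male, WT male, KO female and WT female at E14.5 and the same 4 at E12.5, each with 1 array, so no group had a replicate, and how precise any value is depends on this small number of arrays. The labels do not give the strain, the KO allele, the number of embryos pooled for an array, or how much of the adjoining mesonephros was kept with the gonad. The study asked how loss of Wnt4, a secreted signal needed for ovary development, alters the gonad while its sex is being determined.

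The mesonephric duct is an epithelial tube that runs beside the early gonad. It becomes the epididymis and vas deferens in males and regresses in females. Pax2 and Pax8 are paired-box transcription factors that act together to set up the nephric lineage, and Gata3 is a zinc-finger factor that the duct needs to grow toward the cloaca. Cdh1 (E-cadherin) joins epithelial cells at adherens junctions, Cldn7 (claudin 7) is a tight-junction protein, and Krt8 and Krt18 are keratins that pair into the filaments of simple epithelia. Upk3b (uroplakin 3B) is a membrane protein known as a marker of mesothelium, the cell layer that also covers the gonad. Cdh1 is also made by mouse fetal germ cells, so it is not a marker of the duct alone.

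On the GRCm38.p6 assembly of RefSeq, Gata3 lies at chr2:9857078-9887953, Pax8 at chr2:24420551-24475599, Pax2 at chr19:44746601-44838269, Cldn7 at chr11:69964779-69967886, Cdh1 at chr8:106603350-106670247 and Upk3b at chr5:136038496-136044993. Krt8 (chr15:101996711-102004342) and Krt18 (chr15:102028216-102032026) are neighbours, 23873 bases apart. The array's name for the Cldn7 probe set marks it as shared among similar sequences, so its signal could include related transcripts.

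Promoter windows of 300 bases, from 250 before to 50 after a start listed for the gene, were found for 7 of the 8 genes. There were 10 windows in all, and Cdh1 had no entry. Such a start need not be the outer end of the gene's coordinates given above. The Gata3 window and the Cldn7 window printed below lie within those coordinates. The windows of the 3 genes whose centred levels spanned at least 2-fold across the arrays are printed from RefSeq (GRCm38.p6), 5′ to 3′ on the gene's strand, for reference beside those levels. Capitals mark matches, on either strand, to CACCTG (an E-box, read as CAGGTG on the other strand), GGGCGG (a GC box, read as CCGCCC) or CCAAT.
Gata3, chr2:9878551-9878850, minus strand: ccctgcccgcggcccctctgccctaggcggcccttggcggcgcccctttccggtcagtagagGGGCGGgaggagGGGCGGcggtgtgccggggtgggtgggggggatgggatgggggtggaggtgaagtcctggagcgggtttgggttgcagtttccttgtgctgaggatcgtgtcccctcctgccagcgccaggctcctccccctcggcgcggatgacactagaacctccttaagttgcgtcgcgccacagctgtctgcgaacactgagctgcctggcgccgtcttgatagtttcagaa
Pax8, chr2:24475550-24475849, minus strand: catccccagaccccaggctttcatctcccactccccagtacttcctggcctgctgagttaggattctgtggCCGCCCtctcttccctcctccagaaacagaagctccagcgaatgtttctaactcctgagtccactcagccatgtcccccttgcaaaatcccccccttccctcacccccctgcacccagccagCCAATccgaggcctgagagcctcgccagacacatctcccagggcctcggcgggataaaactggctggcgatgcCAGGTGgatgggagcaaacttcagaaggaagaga
Cldn7, chr11:69965171-69965470, plus strand: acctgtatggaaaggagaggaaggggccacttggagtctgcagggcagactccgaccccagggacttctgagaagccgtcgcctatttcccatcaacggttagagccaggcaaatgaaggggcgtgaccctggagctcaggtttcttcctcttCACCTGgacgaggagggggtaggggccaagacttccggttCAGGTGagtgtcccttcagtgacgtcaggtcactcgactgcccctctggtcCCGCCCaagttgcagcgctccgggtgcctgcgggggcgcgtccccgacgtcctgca
The Gata3 window held 2 GC boxes. The Pax8 window held 1 E-box, 1 GC box and 1 CCAAT, and the Cldn7 window held 2 E-boxes and 1 GC box. The other Cldn7 window, at an upstream start, held none of these motifs. Over the 10 windows, 5 held the E-box, against 20.2% of all 32851 promoter windows, 5 held the GC box, against 35.7%, and 1 held AGATAA (bound by GATA factors), against 11.2%. TATAAA was in 1 window, against 13.6% of all, and CCAAT in 1, against 37.4%.

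Several facts of the arrays touch the values below. The Wnt4 probe set was lower in KO than in WT in all 4 pairs, by 0.23 (males, E14.5), 0.92 (males, E12.5), 1.14 (females, E14.5) and 1.60 (females, E12.5) on the log2 scale. Across probe sets, r was 0.996 between the E14.5 male arrays and 0.884 to 0.908 between these and the other 6, while those 6 ranged from 0.979 to 0.997 among themselves. Xist, the RNA of the inactive X chromosome, was at 7.10 and the Y-linked Eif2s3y at 7.63 on the array that is labelled WT female E14.5, against 7.69 to 8.13 and 4.86 to 6.04 on the other 3 female arrays, so that array goes partly against its label. The gonad markers Wt1 (8.41 to 10.04), Gata4 (8.93 to 9.50) and Tcf21 (10.21 to 10.70) were above the floor on all 8 arrays. The values given are log2 signals after each array was centred on a common median, and differences are log2.

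The duct transcription factors differed in level and in how far they moved. Gata3 was at 5.74 in KO and 5.67 in WT males at E14.5, 7.99 in KO and 7.60 in WT males at E12.5, 7.03 in KO and 6.84 in WT females at E14.5, and 8.11 in KO and 8.14 in WT females at E12.5. All 4 E12.5 arrays lay above all 4 E14.5 arrays, and only 1 E14.5 array, the KO female, was above the floor. With values under the floor raised to it, Gata3 spanned 1.16.

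Pax8 was at 8.81 in KO and 8.71 in WT males at E14.5, 7.86 in KO and 8.31 in WT males at E12.5, 8.14 in KO and 8.58 in WT females at E14.5, and 8.36 in KO and 8.87 in WT females at E12.5. The KO array was the lower in 3 of the 4 pairs, and the E14.5 male pair ran the other way by 0.10. Pax2 stayed near the floor, at 7.29 in KO and 7.36 in WT males at E14.5 and between 6.95 and 7.09 on the other 6 arrays, so its highest signal was only 0.38 above the floor.

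Of the junction genes, Cldn7 was at 6.58 in KO and 6.33 in WT males at E14.5, 7.72 in KO and 7.88 in WT males at E12.5, 7.43 in KO and 7.80 in WT females at E14.5, and 8.02 in KO and 8.40 in WT females at E12.5. Both E14.5 male arrays were below the floor, and the KO array was the lower in the other 3 pairs. With the floor, Cldn7 spanned 1.42. Cdh1 spanned 0.33, with 8.31 in KO and 8.44 in WT males at E14.5, 8.15 in KO and 8.11 in WT males at E12.5, 8.44 in KO and 8.41 in WT females at E14.5, and 8.26 in KO and 8.21 in WT females at E12.5.

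Krt8 was at 9.84 in KO and 9.70 in WT males at E14.5, 9.16 in KO and 9.22 in WT males at E12.5, 9.04 in KO and 9.08 in WT females at E14.5, and 8.94 in KO and 9.23 in WT females at E12.5. The E14.5 males were the highest pair after centring, 0.48 above the next array, but in the deposited values they were at 9.37 (KO) and 9.27 (WT), under the 9.47 (KO) and 9.55 (WT) of the E12.5 males. Its partner Krt18 was at 9.26 in KO and 8.78 in WT males at E14.5, 8.52 in KO and 8.76 in WT males at E12.5, 8.57 in KO and 8.70 in WT females at E14.5, and 8.88 in KO and 9.26 in WT females at E12.5. Its highest centred values came from the KO male at E14.5 and the WT female at E12.5; in the deposited values the KO male at E14.5 was at 8.79, against 9.43 in the WT female at E12.5.

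Upk3b was at 9.81 in KO and 9.45 in WT males at E14.5, 10.02 in KO and 9.51 in WT males at E12.5, 9.88 in both females at E14.5, and 9.97 in KO and 9.88 in WT females at E12.5. Both WT male arrays were the lowest after centring, 0.31 under the next array; in the deposited values the E14.5 males were the lowest, at 9.34 in KO and 9.02 in WT. In the order of levels, neighbouring arrays were further apart than the residual SD of the fit in 5 of 5 steps for Cldn7 (SD 0.06), 3 of 4 for Gata3 (0.10), 3 of 6 for Pax2 (0.03), 3 of 7 each for Pax8 (0.14), Krt8 (0.09) and Upk3b (0.06), and 1 of 7 each for Cdh1 (0.07) and Krt18 (0.19), with values at the floor taken as tied. The SDs come from values raised to the floor. For Cldn7 this turned the KO against WT difference of the E14.5 males from 0.25 to 0. Its SD, and the SEs of its differences below, thus depend on the floor.

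**Figure D1:**
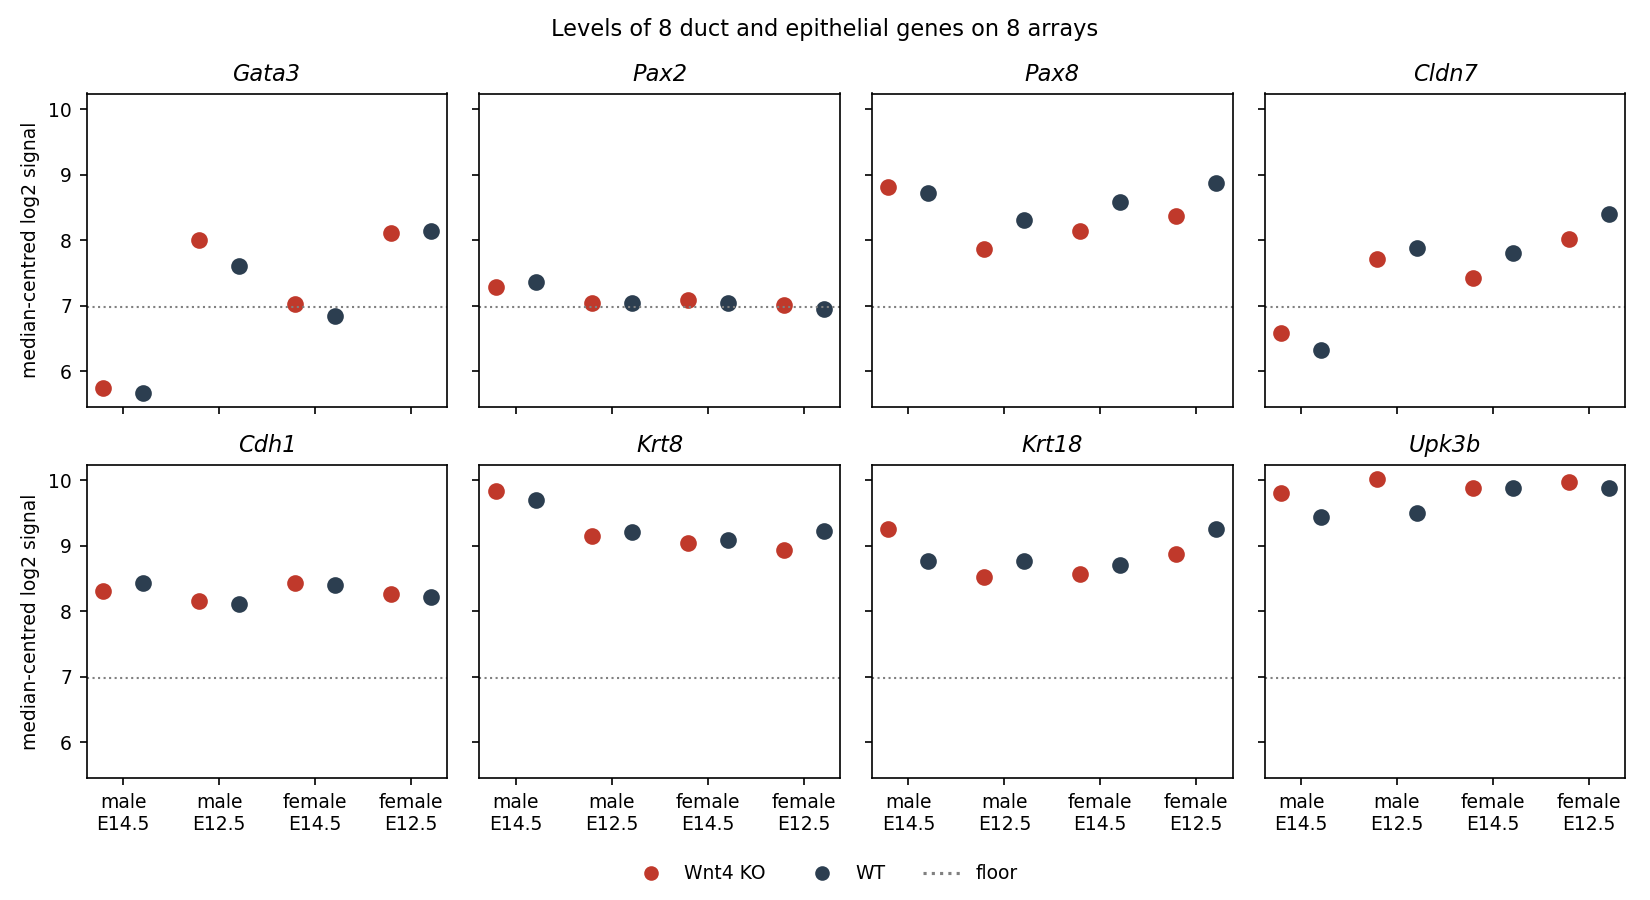
Median-centred log2 signal (vertical axis) of the 8 genes on each of the 8 arrays, KO in red and WT in dark blue, with the floor of 6.99 as a dotted line. Gata3 and Cldn7 lie under the floor on both E14.5 male arrays, Krt8 is highest there after centring, and Cdh1 spans 0.33 over all arrays.

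The KO effect was the study's main question. None of the 8 genes passed the test in KO against WT gonads, in females, in males or over both sexes, and no fitted probe set on the array did (0% of 8452 called by limma in each of these comparisons, Benjamini-Hochberg adjusted p at 0.05). Wnt4, the gene knocked out, did not pass either, though its probe set was lower in KO in every pair. The smallest limma adjusted p over all fitted probe sets was 0.346 in females and 0.794 in males. Not passing here thus does not show that a gene was unchanged. At an unadjusted p of 0.05, limma counted 962 probe sets in females, 405 in males and 487 over both. The error of this test comes from how far a KO effect differs between the stages within a sex, since there were no replicate arrays. In a bulk sample, fewer cells of a type and less RNA per cell cannot be told apart.

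In females, Pax8 was lower in KO on both days, by 0.44 at E14.5 and 0.51 at E12.5. The fitted difference was -0.48 ± 0.14 (SE with the spread estimated over all 8 arrays, limma adjusted p = 0.433). Cldn7 was also lower in KO on both days, by 0.37 and 0.39, with a fitted difference of -0.38 ± 0.06 (limma adjusted p = 0.433). Krt18 differed by -0.14 at E14.5 and -0.38 at E12.5 and Krt8 by -0.04 and -0.28, with fitted differences of -0.26 ± 0.19 and -0.16 ± 0.09. Cdh1 and Upk3b differed by no more than 0.09 in either female pair. Gata3 was 0.04 lower in KO at E12.5 and at least 0.04 higher at E14.5, and Pax2 was at least 0.03 higher in KO at E12.5 and 0.04 higher at E14.5, where "at least" marks a WT array under the floor. With the array labelled WT female E14.5 set aside, only the E12.5 pair bears on a KO effect in females, at -0.51 for Pax8 and -0.39 for Cldn7.

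In males, Upk3b was higher in KO on both days, by 0.36 at E14.5 and 0.52 at E12.5, with a fitted difference of 0.44 ± 0.06 (limma adjusted p = 0.794), against 0.05 ± 0.06 in females. The difference between these KO effects, male minus female, was 0.39 ± 0.09 (limma adjusted p = 0.434), and 0% of fitted probe sets passed in that comparison, with 971 at an unadjusted p of 0.05. Pax8 differed between KO and WT males by 0.10 at E14.5 and -0.46 at E12.5, and Krt18 by 0.49 and -0.24, so neither kept 1 direction. Gata3 was 0.40 higher in KO than in WT males at E12.5 and under the floor in both at E14.5. Over both sexes the fitted KO effects were -0.33 ± 0.10 for Pax8, -0.23 ± 0.04 for Cldn7 and 0.24 ± 0.05 for Upk3b, with limma adjusted p of 0.843, 0.765 and 0.765.

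No KO against WT pair of arrays was 2-fold apart for any of the 8 genes. The share of all fitted probe sets that far apart was 0.0592% (males, E14.5), 0.107% (males, E12.5), 0.225% (females, E14.5) and 0.225% (females, E12.5). With the floor, the median size of the 32 KO against WT pair differences of the 8 genes was 0.12. It was 0.31 for the 32 between stages and 0.26 for the 32 between sexes. Over all fitted probe sets, the median sizes of fitted KO effects, 0.077 in females and 0.058 in males, were also below the others. For stage they were 0.14 in females and 0.52 in males, and for sex 0.13 at E12.5 and 0.50 at E14.5.

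**Figure D2:**
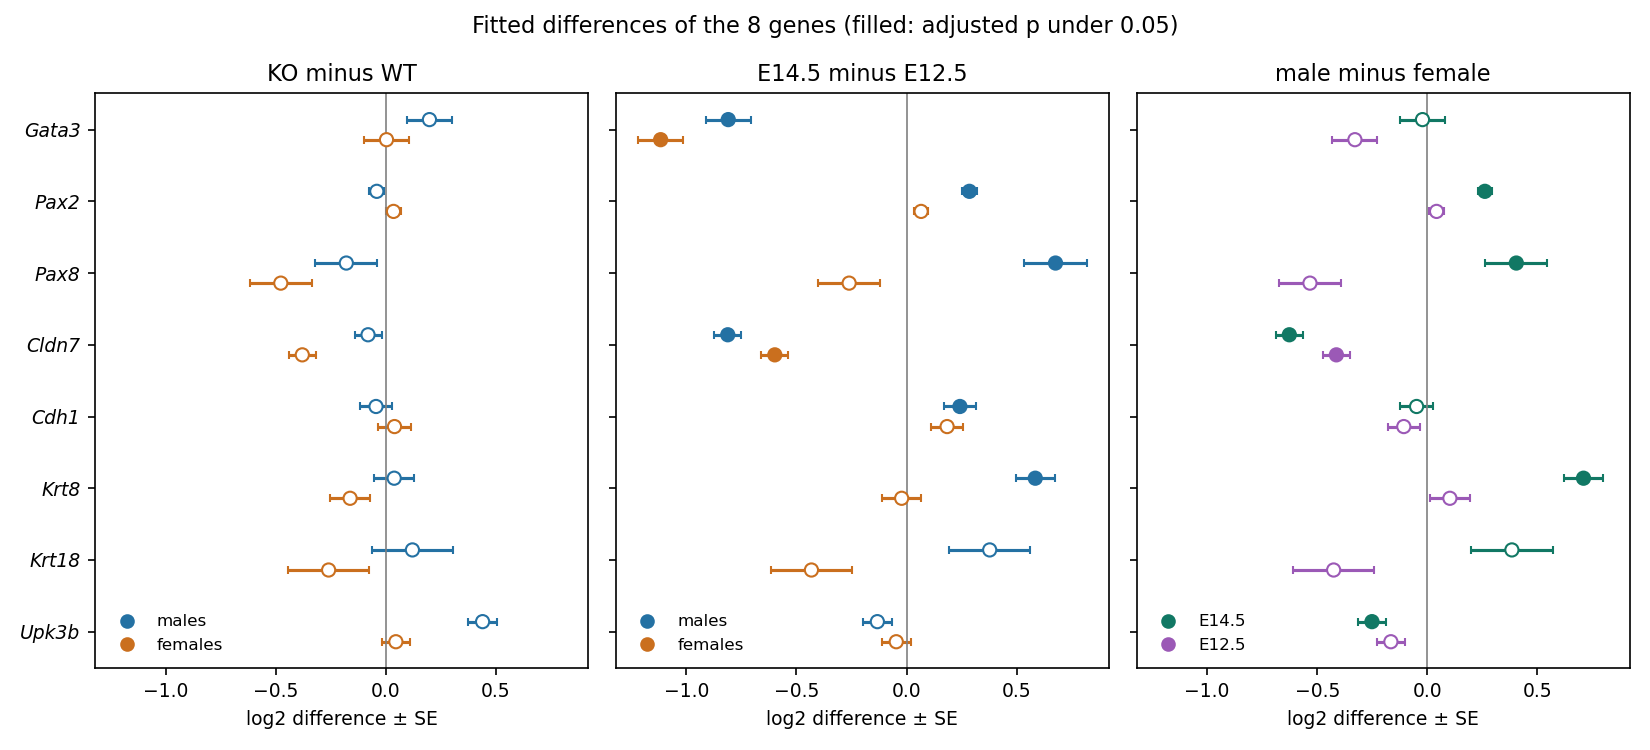
Fitted log2 differences of the 8 genes (horizontal axis, bars are SEs of the limma fit on 8 arrays) for KO minus WT, E14.5 minus E12.5 and male minus female, with filled points past an adjusted p of 0.05. No point is filled in the KO panel, and Gata3 and Cldn7 are filled to the left of 0 in both sexes in the stage panel.

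More of these genes passed the test between stages than between genotypes. The array labelled WT female E14.5, which goes partly against its label, enters the female stage effect and its difference from that in males. In females, Gata3 fell by 1.12 ± 0.10 (SE, limma adjusted p = 0.0102) and Cldn7 fell by 0.60 ± 0.06 (limma adjusted p = 0.0107) at E14.5 against E12.5. The other 6 genes did not pass, among them Krt18 at -0.43 ± 0.19, Pax8 at -0.26 ± 0.14 and Cdh1 at 0.18 ± 0.07. In the uncentred values, whose median over all probe sets was -0.27 here, Krt18 and Pax8 passed, at -0.68 and -0.51 (limma adjusted p of 0.0172 and 0.0182). Among all fitted probe sets 23.1% were called, 8.41% higher and 14.6% lower, so 2 of 8 lower and 0 of 8 higher is near that background. Both calls were lost when any 1 of the 8 arrays was left out, at adjusted p of 0.106 to 0.153 for Gata3 and 0.106 to 0.154 for Cldn7, while the differences stayed within -1.16 to -1.08 and -0.61 to -0.59. Here and below, a fit with 1 array left out has fewer residual degrees of freedom than the full fit. A call lost in it thus need not rest on that array. Both calls were also lost without the filter on low values, at limma adjusted p of 0.0702 and 0.0675. With 1 stage effect for both sexes they were lost too, at limma adjusted p of 0.0860 for both genes.

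In males, 6 of the 8 genes passed, against 77.8% of all fitted probe sets (38% higher and 39.9% lower), so this share is no larger than the array's own. Cldn7 fell by 0.81 ± 0.06 (limma adjusted p = 0.000238) and Gata3 fell by 0.81 ± 0.10 (limma adjusted p = 0.00134) at E14.5. Both sizes depend on the floor, under which all E14.5 male values of these genes lay: without it they were -1.34 for Cldn7 and -2.09 for Gata3. Pax8 rose by 0.68 ± 0.14, Krt8 by 0.58 ± 0.09, Pax2 by 0.29 ± 0.03 and Cdh1 by 0.24 ± 0.07 (limma adjusted p of 0.00853, 0.00275, 0.00101 and 0.0307) relative to the array median, but in the deposited, uncentred values these differences were -0.10, -0.19, -0.40 and -0.54. Krt18, at 0.38 ± 0.19, did not pass. With 1 array left out, Gata3, Cldn7 and Pax2 passed in all 8 fits, whereas the call was lost in 2 fits for Pax8, 4 for Krt8 and 8 for Cdh1. Pax8 and Cdh1 were also lost without the filter on low values (limma adjusted p of 0.0644 and 0.0828), and with 1 stage effect for both sexes limma called 0 of all fitted probe sets.

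With values under the floor raised to it, 3 of the 32 stage differences between single arrays were at least 2-fold, all of Gata3. It was 1.08 lower at E14.5 in KO females, at least 1.16 lower in WT females and at least 1.01 lower in KO males, and at least 0.61 lower in WT males. Cldn7 was at least 0.73 lower in KO and at least 0.89 lower in WT males. These bounds do not show that the differences of Gata3 in WT males and of Cldn7 were under 2-fold. Among all fitted probe sets, 0.26% were at least 2-fold lower in KO females, 0.45% in WT females and 13.7% in KO males.

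The stage effect differed between males and females for 4 of the 8 genes, against 69% of all fitted probe sets. The difference, male minus female, was 0.94 ± 0.20 for Pax8, 0.81 ± 0.26 for Krt18, 0.61 ± 0.13 for Krt8 and 0.22 ± 0.05 for Pax2 (limma adjusted p of 0.0114, 0.0428, 0.0107 and 0.0116), and in the uncentred values these were 0.41, 0.28, 0.079 and -0.24, of which the first 3 did not pass. With 1 array left out the call was lost in 4 of 8 fits for Pax8, 6 for Krt18, 6 for Krt8 and 3 for Pax2. Without the filter on low values Pax8, Krt18 and Krt8 were lost (limma adjusted p of 0.0772, 0.183 and 0.0574), and without the floor Pax2 was (0.0996). Cldn7, at -0.21 ± 0.09 (limma adjusted p = 0.0799), passed without the floor and with one at the 25th percentile, at -0.75 (0.00462 and 0.00907), and in the uncentred values, at -0.30 (0.0346). For Gata3 the sign depended on the floor: it was 0.31 ± 0.14 (limma adjusted p = 0.116) with the floor and -0.90 (limma adjusted p = 0.00198) without it. Both sexes enter these differences: that of Krt18 joins 0.38 ± 0.19 in males and -0.43 ± 0.19 in females. The technical measures of the E14.5 male arrays bear on the male side. Centring added 0.47 and 0.43 to these arrays (KO, WT), against -0.34 to 0.09 on the other 6. The spike-in controls, read after centring, averaged 10.09 and 9.98 on them and 8.83 to 9.78 elsewhere. These means include what centring added, so their height on the E14.5 male arrays is not separate from the centring. The gap between 3′ and 5′ actin probe sets, a measure of RNA integrity, was 1.09 and 1.37 on them. It was 0.48 to 1.10 elsewhere, so this measure overlapped. Both measures split by sex at both stages. The actin gap was 0.96 to 1.37 on the male arrays and 0.48 to 0.77 on the female arrays. The spike-in means were 9.48 to 10.09 on the male arrays and 8.83 to 9.05 on the female arrays. The part of these measures in the stage and sex results was not tested. With 1 hybridisation per group, stage in males cannot be told apart from whatever set the E14.5 male arrays apart. Sex at either stage cannot be told apart from the split in these measures.

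Males and females were compared at each stage, on arrays whose actin gap and spike-in means also split by sex. At E14.5, Krt8 was higher in males by 0.71 ± 0.09, Pax8 by 0.40 ± 0.14 and Pax2 by 0.26 ± 0.03 (limma adjusted p of 0.0014, 0.048 and 0.00144), where the uncentred difference was 0.016 for Pax8, without passing, and -0.040 for Pax2. Cldn7 was lower in males by 0.63 ± 0.06 and Upk3b by 0.25 ± 0.06 (limma adjusted p of 0.000569 and 0.0183). Uncentred, Krt8 was at 0.32 and Upk3b at -0.64, both still past the threshold. Without the floor Gata3 was also lower in males, at -1.23 (limma adjusted p = 7.34e-05), against -0.02 ± 0.10 with it, and Cldn7 was at -1.16. Upk3b was lost after quantile normalization, at -0.079 (limma adjusted p = 0.257), and Pax8 without the filter on low values (0.184). With 1 stage effect for both sexes limma called 0 of all fitted probe sets. These 5 of 8 genes compare with 77.5% of all fitted probe sets. The female side at E14.5 includes the array labelled WT female E14.5, which goes partly against its label. With 1 array left out, Cldn7 and Pax2 passed in all 8 fits, and the call was lost in 1 fit for Krt8 and in 5 each for Pax8 and Upk3b. At E12.5, only Cldn7 passed, lower in males by 0.41 ± 0.06 (limma adjusted p = 0.0259), against 16.3% of all fitted probe sets, and this call was lost whichever array was left out, without the filter on low values and with the floor at the 25th percentile (limma adjusted p of 0.113 and 0.0591). Pax8 at E12.5 was 0.53 ± 0.14 lower in males without passing (limma adjusted p = 0.0656).

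Other genes of the same and related structures were read from lists of markers, with the 8 genes taken out. The nephric and duct list reaches beyond the mesonephric duct, to genes such as Cited1, so it does not measure the duct alone. Of 12 fitted nephric and duct genes, 1 was called higher and 5 lower at E14.5 in females, with a median difference of -0.28, against -0.02 over all fitted probe sets, of which 8.41% were called higher and 14.6% lower. As said of Gata3 and Cldn7, limma called 0 of all fitted probe sets for stage in females once any 1 array was left out, so every female call in these lists is lost then. Those lower included Calb1, a calcium-binding protein of the nephric duct and tubules (-0.76, limma adjusted p = 0.0124), Wnt11, a signal from ureteric bud tips (-0.41, 0.017), and Cdh16, a kidney-type cadherin (-0.58, 0.0313), and the one higher was Cited1, a transcriptional co-regulator of nephron progenitors (1.23, 0.0088). The difference of Calb1 is a bound, since its KO female E14.5 signal, at 5.64, was under the floor. In males 5 of the 12 were higher and 3 lower, against 38% and 39.9% of all fitted probe sets, and no list gene passed in a KO comparison. Of 27 epithelial junction and keratin genes, 0 were higher and 7 lower at E14.5 in females (8.41% and 14.6% of all fitted probe sets), among them the desmosomal genes Jup (-0.58) and Dsp (-0.37) and the tight-junction genes F11r and Cldn8 (both -0.45). Cldn8 was above the floor on only 2 arrays, the E12.5 females. It thus passed the filter through the group where it was high, and its difference is a bound. In males 9 of the 27 genes were higher and 12 lower, near the 38% and 39.9% of all fitted probe sets. Of 11 coelomic and mesothelial genes, 0 were higher and 5 lower in females, against the same 8.41% and 14.6%, and 4 higher and 4 lower in males, near the background.

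Mean levels of the lists give the setting of these values. In males the 12 nephric and duct genes averaged 8.15 in KO and 8.05 in WT at E14.5, and 8.13 and 8.18 at E12.5. In females they averaged 7.67 in KO and 7.91 in WT at E14.5, and 8.14 and 8.16 at E12.5. Both female E14.5 arrays were thus the lowest after centring, whereas the deposited means were 7.68 and 7.62 in KO and WT males and 7.63 and 7.82 in KO and WT females at E14.5. The 27 epithelial genes ranged from 8.00 to 8.45 and the 11 coelomic genes from 8.38 to 8.73. The duct genes Ret and Gfra1 and the epithelial genes Epcam and Ocln were among those under the floor on every array, which gives only an upper bound for them. Among lists for other gonadal cells, 7 pregranulosa genes, with Wnt4 itself left out, averaged 8.41 in KO and 8.89 in WT females at E14.5 and 8.18 in KO and 9.14 in WT females at E12.5. The 10 Sertoli and 8 Leydig genes averaged 8.27 and 8.63 on the array that is labelled WT female E14.5, against 7.67 to 7.90 and 7.43 to 7.79 on the other 3 female arrays. The part of these cell types in the values of the 8 genes was not tested.

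**Figure D3:**
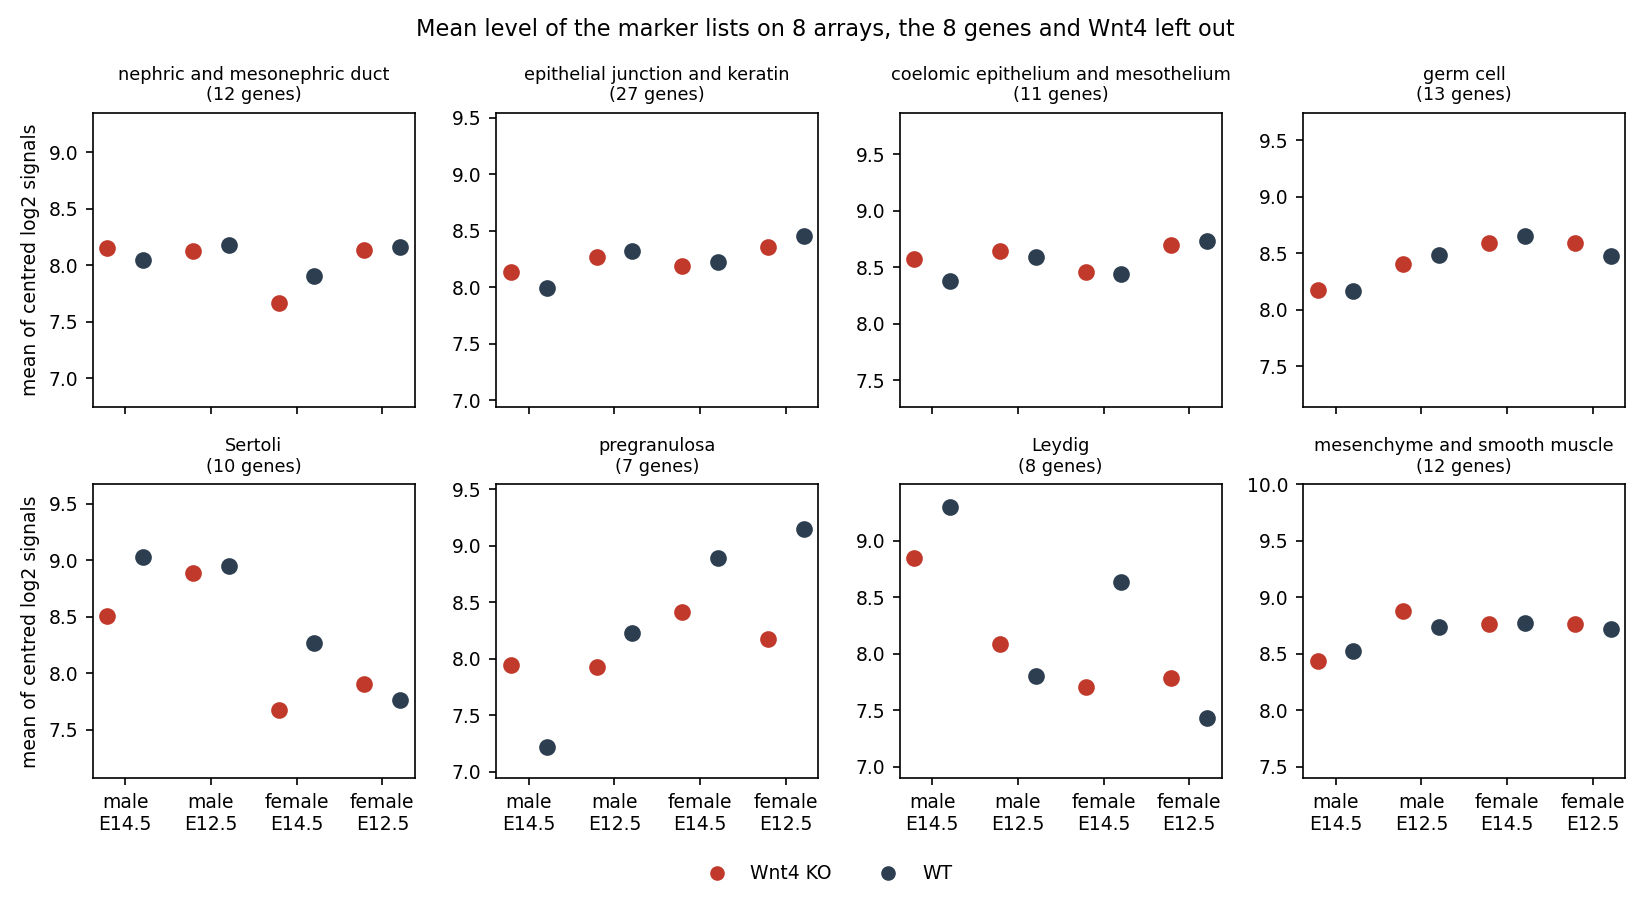
Mean centred log2 signal (vertical axis) of each marker list on the 8 arrays, KO in red and WT in dark blue, with the 8 genes and Wnt4 left out. The nephric and duct list is lowest on both female E14.5 arrays (7.67 in KO, 7.91 in WT). The pregranulosa list is lower in KO than in WT females at both stages.

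Likeness of pattern was described by Pearson's r of centred values over the 8 arrays, among 2753 candidate genes whose values spanned at least 1 log2 unit, and again over 6 arrays, leaving out the E14.5 males. Points share arrays and centring, so these are descriptions. Wnt4 itself was the gene most like Pax8 (r = 0.846 over 8 arrays, 0.909 over 6), followed by Fgfr2, a growth factor receptor (0.805 and 0.720), and Frmd6 (0.789 and 0.894). Fgfr2 was also the gene most like Krt18 (0.861 and 0.937), with Fxyd2, a regulatory subunit of the kidney sodium pump (0.833 and 0.956), and Pax8 (0.828 and 0.871) after it. Gata3 was most like Ogt (0.997 and 0.997), an enzyme that adds sugar to nuclear proteins, Luc7l2 (0.996 and 0.989) and Dusp1 (0.994 and 0.983). Cldn7 was most like Zfp277 (0.997 and 0.979), and Cdh1 most like Itih5 (0.960 and 0.961).

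Pax2 was most like Atp2b2 (0.993 and 0.962), whose mean level of 6.56 lay under the floor. Krt8 was most like Zfp777 (0.983 and 0.795) and Upk3b most like Sfrp2, a secreted Wnt antagonist (0.826 and 0.806). Among the 8 genes themselves, the r of largest size over 8 arrays were negative and involved Pax2, which stayed near the floor. They were -0.988 for Pax2 and Cldn7 (-0.973 over 6) and -0.932 for Gata3 and Pax2 (-0.719 over 6). Pax8 and Krt18 had r = 0.828 over 8 arrays and 0.871 over 6. Cldn7 and Krt18 had r = -0.03 over 8 arrays and 0.939 over the 6 without the E14.5 males. The keratin partners Krt8 and Krt18 had 0.489 and 0.287, and Gata3 and Cldn7 had 0.930 and 0.661.

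**Figure D4:**
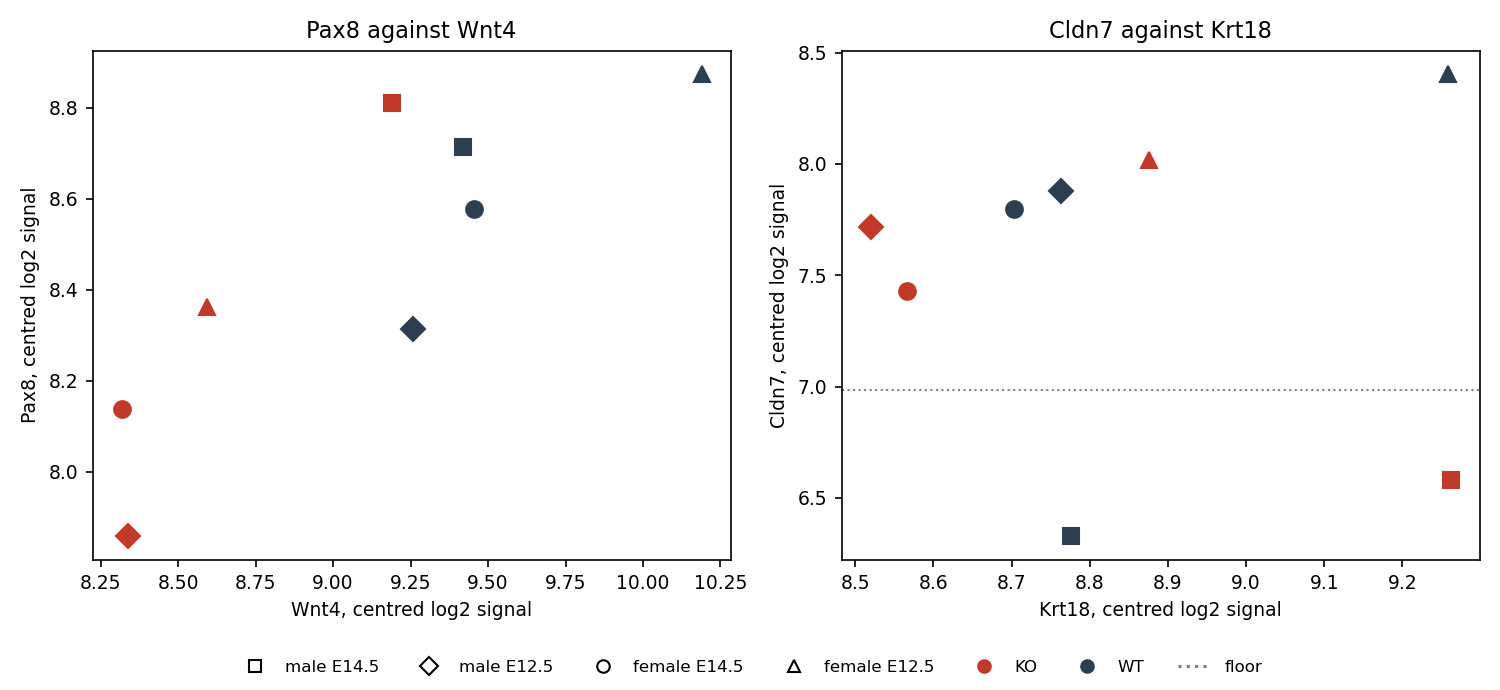
Centred log2 signal of Pax8 against Wnt4 (left) and of Cldn7 against Krt18 (right), 1 point per array, with shape for sex and stage, colour for genotype and the floor as a dotted line. Both E14.5 male arrays (squares) lie under the floor for Cldn7, apart from the other 6, and the KO arrays other than the E14.5 male have the 3 lowest Wnt4 signals.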

How the data were processed

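Expression was measured on 8 arrays, 1 per combination of genotype, sex and stage. The authors deposited log2 values for 12488 probe sets, summarised with MAS5 per the submitters' processing notes. Its version, scaling and background correction are not stated there, and the log2 scale was read from the range of the deposited values (2.36 to 15.0). One deposited column, that of the KO male at E12.5, was recorded as a score because 14 of its cells held date serial numbers (41278 to 41284), which were set to missing. Its other cells were used as log2 values, like those of the other columns.

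Arrays, whose deposited medians ran from 7.04 to 7.85, were centred on 1 median. For fits and pair differences, values under the 40th percentile (6.99) were raised to that floor, so a pair difference with 1 array there is a bound; levels and correlations use values as centred. After leaving out 66 controls, 8452 probe sets (6353 genes) exceeded the floor on 2 or more arrays. By the annotation, 10855 probe sets had a single gene, 396 had more and 1237 lacked one. limma 3.58.1 in R 4.3.3 fitted sex by genotype plus sex by stage, with an intensity trend and two-sided Benjamini-Hochberg adjusted p at 0.05. There were 2 residual and 2.77 prior degrees of freedom, and the fit was tested on simulated data. Named genes were the 8 genes, Wnt4, up to 4 genes of a list and the 3 most alike for each gene. The 8 genes and the lists were chosen with earlier results of these data known. Other floors, filters, scalings and models were tried, and each array was left out in turn.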

Additional observations from a re-analysis of the deposited data

Results flagged for a closer look

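The stage effect differed between males and females by a test of the difference itself for 4 of the 8 genes, where 69% of all fitted probe sets passed that test. The differences, male minus female on the log2 scale, were 0.94 for Pax8, 0.81 for Krt18, 0.61 for Krt8 and 0.22 for Pax2. Each uses the pair of E14.5 male arrays, which correlated less with the other 6 arrays (0.884 to 0.908) than those did among themselves (0.979 to 0.997).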

How the results depend on the processing

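No paired analysis was possible because each group had 1 array and the labels carry no replicate numbers. In females, 1949 probe sets passed between stages; the count was 40 without the filter on low values, 5156 in the uncentred values, 0 with 1 stage effect for both sexes, 0 with any 1 array left out and 0 without both E14.5 male arrays (an alternative chosen after seeing the data). Between sexes at E12.5, 1377 passed, and the counts under the same changes were 31, 2873, 0, 0 and 0. With 1 stage effect for both sexes, 0 passed between stages in males (6577 otherwise) and 0 between sexes at E14.5 (6551 otherwise). The shares of calls that were higher were 5.24% in uncentred against 36.5% in centred values for stage in females (49.0% after quantile normalization), 11.1% against 48.8% for stage in males, 18.1% against 51.0% for stage by sex, 85.6% against 47.8% for sex at E12.5 and 27.5% against 51.0% for sex at E14.5. The median of all probe sets in the uncentred values was -0.69 for stage in males, -0.27 in females and for sex at E14.5, -0.41 for stage by sex and 0.12 for sex at E12.5.

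Of the 72 fitted differences of the 8 genes, 14 changed sign in the uncentred values, 6 after quantile normalization and 3 under each other floor, as did 5 of 64 with 1 stage effect for both sexes. Those printed above are given here. Uncentred, stage in males gave -0.40 for Pax2, -0.10 for Pax8, -0.54 for Cdh1, -0.19 for Krt8 and -0.40 for Krt18, stage in females -0.068 for Cdh1, stage by sex -0.24 and sex at E14.5 -0.040 for Pax2. With 1 stage effect, Pax8 was 0.21 for stage in females and -0.064 for sex at E14.5, and Krt18 was -0.027 for stage in males. The KO effect of Cldn7 in males was 0.045 without a floor and with one at the 25th percentile, and stage by sex of Gata3 was -0.90 and -0.55 under those floors. Without both E14.5 male arrays the KO effect of Krt18 in males was -0.24. With 1 array left out, KO effects in males ran from -0.46 to 0.10 for Pax8 and -0.24 to 0.49 for Krt18, and Gata3 for sex at E14.5 ran from -0.22 to 0.18. The cause of these changes was not tested. Signals near the floor, as for Pax2, Gata3 and Cldn7, limit what the arrays can resolve.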

Other observations

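Krt19, a keratin of simple epithelia and ducts, was at 9.65 in KO and 8.93 in WT males at E14.5 and at 8.61 in KO and 8.26 in WT males at E12.5. In females it was at 9.24 in KO and 9.13 in WT at E14.5 and at 8.72 in KO and 8.94 in WT at E12.5. The KO array was thus the higher in 3 of the 4 pairs, as it was for Krt18 and Krt8 in the E14.5 male pair alone; Krt19 was named after its values were seen.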
